A study of Homo sapiens with 9 samples.

Results

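The transcripts of 10 genes of the Notch and BMP pathways were followed in A375R cells: the bHLH repressors HES1 and HEY1, the inhibitor-of-differentiation genes ID1, ID2, ID3 and ID4, the inhibitory SMADs SMAD6 and SMAD7, the Notch ligand JAG1 and the SMAD co-repressor SKIL. They were taken by gene symbol from a table of 62710 genes, and were chosen with earlier results of these libraries known. All 10 were among the 15230 genes whose mean normalized count over the 9 libraries was at least 10, which are the genes that were tested. A375R is a human melanoma line resistant to the BRAF inhibitor PLX4032, and per the study's methods the cells are cultured in the presence of that drug, so this holds for every group. Poly(A) RNA was sequenced from 3 libraries of DMSO-treated cells, 3 of cells given 10 µM VHL-r for 2 h and 3 of cells given 10 µM R4VPL3-1 for 2 h. R4VPL3-1 is a PROTAC-like molecule built to bring the ubiquitin ligase RNF4 to the VHL ligase, and VHL-r carries only the part that binds VHL. The control libraries are labelled wild type with no dose, and the design text names DMSO as the control. The column headers of control replicates 2 and 3 give 2 h, and that of replicate 1 gives no time. The libraries are described as biological repeats of 1 cell line, so the errors given here describe this line only.

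In Notch signaling, a ligand such as JAG1 on one cell releases the intracellular domain of a NOTCH receptor in its neighbour, and this domain joins RBPJ on DNA to switch on HES and HEY genes, whose products are repressors. BMP receptors phosphorylate SMAD1, SMAD5 and SMAD9, which with SMAD4 switch on the ID genes. ID proteins lack a DNA-binding region and hold bHLH activators such as the E-proteins away from DNA. SMAD6 and SMAD7 act as brakes on the same receptors, and SKIL binds SMADs and represses their targets, so several of the 10 genes are at once targets and inhibitors of a pathway. Many of their messages are known to be short-lived.

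The region upstream of HES1, the member with the largest change, is shown with that of ID1, whose level passed the main test in no comparison. Both were read from RefSeq on GRCh38.p14, on the plus strand, up to the last base before the first exon. In HES1 the capitals mark TGGGAA, the core to which RBPJ binds, and in ID1 they mark CACNAG, the N box to which HES repressors bind.
HES1, chr3:194135898-194136147: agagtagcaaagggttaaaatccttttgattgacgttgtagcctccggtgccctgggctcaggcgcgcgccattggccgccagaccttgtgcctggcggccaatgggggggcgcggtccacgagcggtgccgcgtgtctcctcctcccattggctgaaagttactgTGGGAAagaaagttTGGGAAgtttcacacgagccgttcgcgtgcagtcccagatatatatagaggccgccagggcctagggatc
ID1, chr20:31605039-31605282: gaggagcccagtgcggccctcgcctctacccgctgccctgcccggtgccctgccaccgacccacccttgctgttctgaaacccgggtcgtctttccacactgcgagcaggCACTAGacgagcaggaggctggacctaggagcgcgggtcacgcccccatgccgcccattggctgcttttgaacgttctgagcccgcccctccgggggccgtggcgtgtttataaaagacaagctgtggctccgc
The pair of RBPJ cores in HES1 began 84 and 70 bases before the start site. Windows of 300 bases, from 250 before to 50 after a start site, were found for 9 of the 10 genes. HEY1 had no window, so its upstream region was not searched. There were 11 windows in all, since SMAD7 had 3, and both strands were searched. TGGGAA lay in windows of HES1 and SMAD7 and in 24.0% of all 35093 windows searched. The N box was present for HES1, ID1 and SMAD7, and in 38.0% of all windows. CACGCG, a second sequence bound by HES and HEY repressors, was present for HES1 and JAG1 and in 11.4% of all windows. CANNTG, the E box bound by bHLH factors and by definition overlapping other CA-to-TG sequences, was present for ID2, ID4, SMAD6 and SMAD7 and in 68.7% of windows. GGCGCC, a GC-rich sequence bound by SMAD1 and SMAD5, and TGACGTCA, the CRE bound by CREB and ATF factors, were present for SKIL alone among the 9 genes, against 19.2% and 1.85% of all windows. These are matches of letters, and no binding was measured.

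Between them, the 10 genes spanned a wide range of levels. On the scale of normalized counts per kb of exon, the DMSO order was ID3 (1682 ± 376, SD, n = 3), ID1 (1424 ± 267), HES1 (353 ± 43.3), SMAD6 (223 ± 9.30), SKIL (199 ± 24.0), SMAD7 (140.1 ± 17.4), JAG1 (112 ± 8.39), ID2 (98.7 ± 14.0), HEY1 (33.6 ± 7.86) and ID4 (5.48 ± 1.81). The libraries of ID3 and ID1, of SMAD6 and SKIL, and of JAG1 and ID2 overlapped, so the order within those pairs was not resolved. After R4VPL3-1, HES1 stood in place 6 at 93.0 ± 8.04 per kb and overlapped SMAD7 at 77.0 ± 7.58. ID2 stood in place 3 at 192 ± 17.0.

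**Figure D1:**
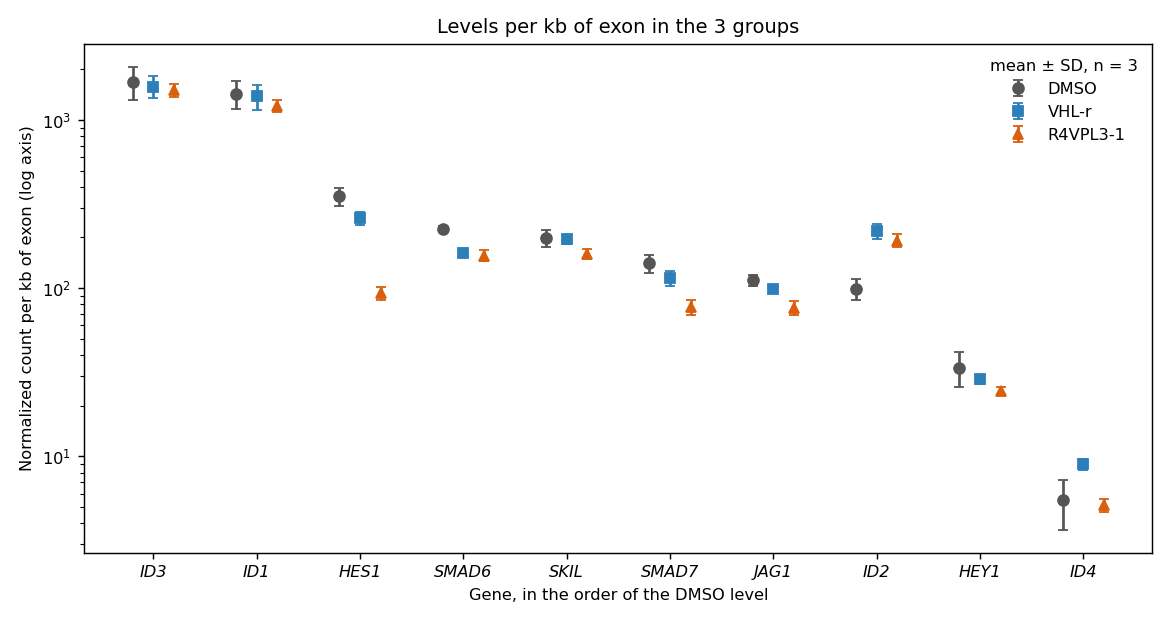
Normalized counts per kb of exon (log axis) for the 10 genes, ordered by their DMSO level, as mean ± SD of 3 libraries per group. HES1 falls from 353 in DMSO to 93.0 in R4VPL3-1, ID2 rises from 98.7 to 192, and ID3 and ID1 stay highest in all 3 groups.

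The 9 libraries held between 26435568 and 32085626 reads, recovered from the deposited values. Counting error weighs most on ID4, which had 15 to 37 reads per library, and next on HEY1, which had 123 to 228. RNF4 itself averaged 407 ± 51.3, 430 ± 20.2 and 407 ± 32.6 (SD, n = 3) normalized counts in DMSO, VHL-r and R4VPL3-1, and neither RNF4 nor VHL passed the test in any comparison. Of 8 melanocyte and melanoma markers, SOX10 was abundant, MLANA was at 0 in every library and TYR averaged below 1 normalized count in each group. The sum of these 8 markers was 22877 to 24657 in DMSO, 13656 to 17016 in VHL-r and 12182 to 14590 in R4VPL3-1, carried by SOX10 at means of 17550, 10200 and 8405. Against DMSO, SOX10 and MITF were called lower with both compounds. SOX10 was also called lower in R4VPL3-1 than in VHL-r (-0.28). PMEL, DCT, S100B and S100A1 were called in no comparison. The 4 markers of dedifferentiated melanoma, mostly AXL, summed to 11877 to 13794 in DMSO, 10767 to 11875 in VHL-r and 10693 to 11765 in R4VPL3-1. Against DMSO, AXL was called lower with both compounds (-0.17 in each). In R4VPL3-1, NGFR was called lower (-0.31) and EGFR higher (0.31), and SOX9 was called in no comparison. Of the 4 immune markers, PTPRC, CD3E and CD68 averaged under 10 normalized counts in each group and LYZ 128, 116 and 103, with a summed level of 121 to 163 in DMSO, 113 to 141 in VHL-r and 79.4 to 127 in R4VPL3-1. The 3 endothelial markers summed to 18.0 to 32.6 over all groups, mostly VWF. The 4 keratinocyte markers summed to 347 to 386, 296 to 316 and 242 to 297, mostly KRT14, which was called lower in R4VPL3-1 than in DMSO (-0.47). The 5 fibroblast markers, led by COL1A1 and COL3A1, summed to 1704 to 2337, 1515 to 3232 and 1789 to 2296. LUM alone of these was called, lower in VHL-r than in DMSO (-0.52). The part of these levels in the results was not tested. In bulk RNA, fewer cells expressing a gene and less RNA per cell cannot be told apart.

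The comparison of R4VPL3-1 with VHL-r, at matched dose and time, asks what the rest of the molecule adds to its VHL-binding moiety. HES1, SMAD7 and JAG1 were lower in R4VPL3-1 by the limma test, for which p-values were adjusted over all tested genes (Benjamini-Hochberg) and called at 0.05 or below. Thus 3 of the 10 genes were called, all lower, where 1.87% of the tested genes were called, 1.14% higher and 0.729% lower. All 10 fitted differences were below 0, as were those of 52.4% of tested genes, and their median log2 fold change was -0.25 against -0.01 for all tested genes. In 6 of the 10 (HES1, HEY1, ID4, SMAD7, JAG1 and SKIL) every R4VPL3-1 library lay below every VHL-r library, which held for 7.11% of tested genes. An exact permutation test of 3 against 3 libraries cannot give a p below 0.1, so the single-gene statements rest on the model fitted across genes.

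Against DMSO, where both comparisons share the same 3 control libraries, R4VPL3-1 gave 7 calls among the 10 genes, 6 lower (HES1, SMAD7, JAG1, SMAD6, HEY1 and SKIL) and 1 higher (ID2). The background was 24.9% of tested genes, 13.1% higher and 11.8% lower. VHL-r gave 3 calls, HES1 and SMAD6 lower and ID2 higher, against a background of 19.8%, with 10.3% higher and 9.51% lower. The median log2 fold change of the 10 genes was -0.37 for R4VPL3-1 and -0.13 for VHL-r, where that of all tested genes was -0.01 and 0.00. Each gene's fold change is given here on the log2(normalized count + 1) scale with its standard error.

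**Figure D2:**
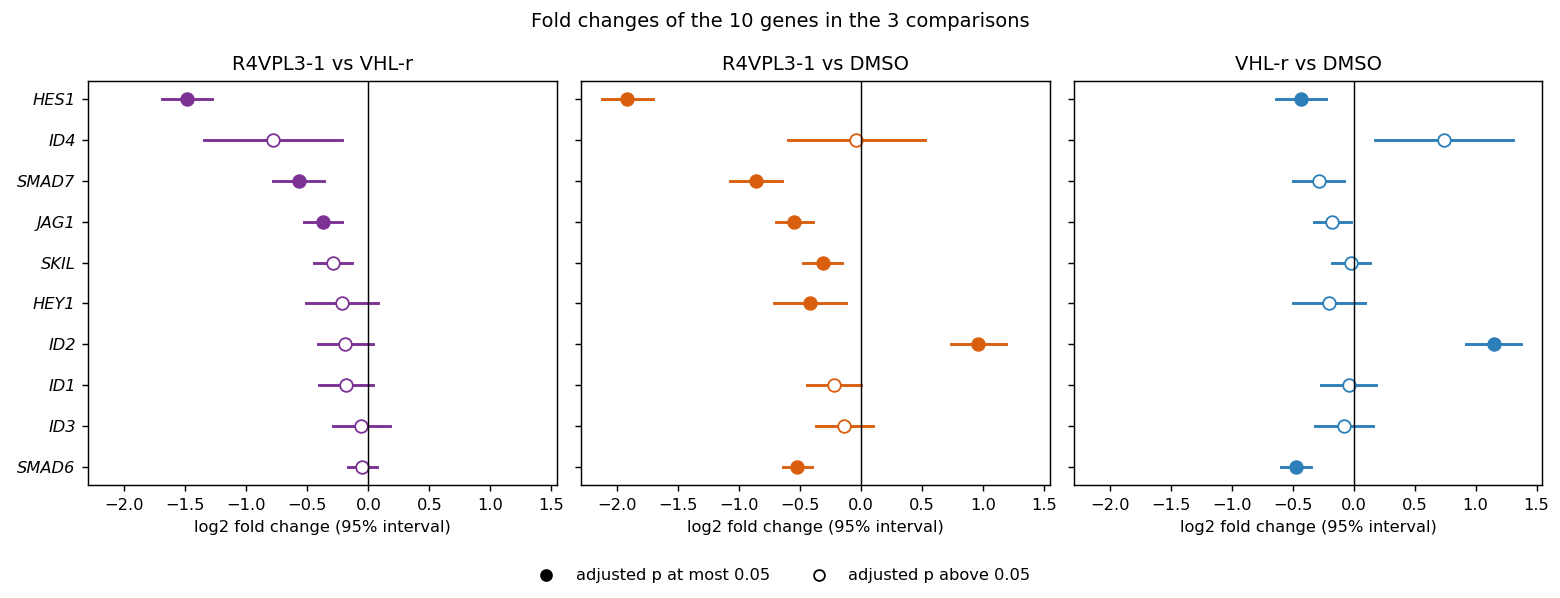
Log2 fold changes of the 10 genes, with 95% intervals from the limma fit, in R4VPL3-1 against VHL-r, R4VPL3-1 against DMSO and VHL-r against DMSO. Filled points had an adjusted p of at most 0.05: 3 genes in the first panel, 7 in the second and 3 in the third.

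JAG1, the ligand of the group (chr20:10637684-10673999, minus strand), was read at 1127, 1018 and 976 normalized counts in DMSO replicates 1, 2 and 3, the order used for every gene and group. It was 916, 948 and 897 in VHL-r and 668, 794 and 677 in R4VPL3-1. The 3 groups formed steps that did not overlap, with R4VPL3-1 lowest. The difference between R4VPL3-1 and VHL-r was -0.37 ± 0.07 (log2, SE; limma adjusted p = 0.00512), a fall of 22.7%, and without VHL-r replicate 2 it missed the threshold (-0.35, adjusted p = 0.0509). R4VPL3-1 was 31.5% lower than DMSO (-0.55 ± 0.07, limma adjusted p = 8.50e-06). VHL-r differed from DMSO by -0.17 ± 0.07 and was not called (limma adjusted p = 0.106). A short part of the JAG1 exons, 3.29%, lies under an antisense transcript, but reads were counted by strand.

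HES1 (chr3:194136148-194138732, plus strand), the canonical Notch target whose product also represses its own gene, showed the largest change of the 10. Its normalized counts were 775, 624 and 782 in DMSO, 547, 487 and 579.7 in VHL-r, and 175, 192 and 208 in R4VPL3-1. The groups were separate, and the R4VPL3-1 libraries had 187 to 194 reads each. The coefficient of variation was 12.3% in DMSO, 8.70% in VHL-r and 8.64% in R4VPL3-1. R4VPL3-1 was 64.3% lower than VHL-r (-1.49 ± 0.10, 95% interval -1.69 to -1.28, limma adjusted p = 2.85e-09). This was the third lowest log2 fold change of the 15230 tested genes. HES1 was 73.5% lower than DMSO in R4VPL3-1 (-1.91 ± 0.10, limma adjusted p = 6.89e-12) and 25.7% lower in VHL-r (-0.43 ± 0.10, limma adjusted p = 0.00336). HES1 was the only one of the 10 genes called lower in all 3 comparisons.

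HEY1 (chr8:79762371-79767857, minus strand), a repressor related to HES1, was expressed at a lower level and moved less. It was counted at 146, 176 and 231 in DMSO, 146, 166 and 159.8 in VHL-r, and 131, 143 and 132 in R4VPL3-1. The R4VPL3-1 libraries lay below all others, and DMSO varied most, with a coefficient of variation of 23.4%. HEY1 was 25.3% lower in R4VPL3-1 than in DMSO (-0.42 ± 0.14, limma adjusted p = 0.0337), a call that was lost without DMSO replicate 3 (-0.25, adjusted p = 0.221) or replicate 2 (-0.44, adjusted p = 0.0676), and without R4VPL3-1 replicate 1 (-0.40, adjusted p = 0.0893) or replicate 3 (-0.40, adjusted p = 0.0718). It was also lost when only the 6 libraries compared were fitted (adjusted p = 0.0503). Against VHL-r the difference was -0.22 ± 0.14, with a 95% interval of -0.51 to 0.08 (limma adjusted p = 0.717).

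SMAD7 (chr18:48919853-48950965, minus strand) blocks both TGF-beta and BMP receptors. Its normalized counts were 627, 492 and 539 in DMSO, 403, 458 and 495 in VHL-r, and 277, 297 and 336 in R4VPL3-1. R4VPL3-1 was below every other library, whereas DMSO and VHL-r met at 492 and 495. R4VPL3-1 was 32.7% lower than VHL-r (-0.57 ± 0.10, limma adjusted p = 0.00188) and 44.9% lower than DMSO (-0.86 ± 0.10, limma adjusted p = 1.60e-06). The difference of VHL-r from DMSO, -0.29 ± 0.10, stood just above the threshold (limma adjusted p = 0.0503) and was called under 8 of 20 alternative settings.

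SMAD6 (chr15:66702236-66782849, plus strand), which mainly restrains BMP receptors, behaved differently. It was counted at 1896, 1998 and 1842 in DMSO, 1376, 1392 and 1363 in VHL-r, and 1318, 1441 and 1242 in R4VPL3-1. Both treated groups lay below DMSO and overlapped each other. SMAD6 was 27.9% lower in VHL-r (-0.47 ± 0.06, limma adjusted p = 4.48e-06) and 30.3% lower in R4VPL3-1 (-0.52 ± 0.06, limma adjusted p = 7.95e-07) than in DMSO. R4VPL3-1 differed from VHL-r by -0.05 ± 0.06 (95% interval -0.17 to 0.07, limma adjusted p = 0.898). Whether SMAD6 and SMAD7 differ in their response was not tested.

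SKIL (chr3:170357342-170396835, plus strand), also called SnoN, was read at 1616, 1419.7 and 1810.1 in DMSO, 1616, 1472 and 1663 in VHL-r, and 1313, 1196 and 1378 in R4VPL3-1. The DMSO and VHL-r libraries overlapped, and the R4VPL3-1 libraries lay below both. SKIL was 19.5% lower in R4VPL3-1 than in DMSO (-0.31 ± 0.08, limma adjusted p = 0.00388). Against VHL-r the difference was of like size, -0.29 ± 0.08, with a 95% interval of -0.45 to -0.13, but it missed the threshold (limma adjusted p = 0.0537) and was called under 7 of 20 alternatives. VHL-r and DMSO differed by -0.02 ± 0.08 (95% interval -0.18 to 0.13, limma adjusted p = 0.878).

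ID2 (chr2:8678845-8684461, plus strand), an inhibitor of bHLH activators, was the only one of the 10 genes called higher in any comparison. It was counted at 231, 183 and 241 in DMSO, 437, 476 and 537 in VHL-r, and 393, 413 and 466 in R4VPL3-1. Every treated library lay above every DMSO library, and the treated groups overlapped. ID2 was 2.22 times its DMSO level in VHL-r (1.15 ± 0.11, limma adjusted p = 1.15e-07) and 1.95 times in R4VPL3-1 (0.96 ± 0.11, limma adjusted p = 8.96e-07). Between the compounds the difference was -0.19 ± 0.11 (95% interval -0.41 to 0.04, limma adjusted p = 0.64). The antisense gene ID2-AS1 covers 6.55% of the ID2 exon bases, and reads were counted by strand.

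ID1 (chr20:31605283-31606515, plus strand) and ID3 (chr1:23557926-23559501, minus strand), the most abundant of the 10 genes per kb and the usual immediate targets of BMP receptors, passed the main test in no comparison. ID1 was counted at 1513, 1624 and 2131 in DMSO, 1587, 1492 and 2037 in VHL-r, and 1353, 1538 and 1586 in R4VPL3-1. ID3 was counted at 2027, 2392 and 3130.4 in DMSO, 2126, 2191 and 2760.3 in VHL-r, and 2059.8, 2242.5 and 2467 in R4VPL3-1. All groups overlapped for both genes, and replicate 3 was the highest library of each group. Between R4VPL3-1 and VHL-r the 95% interval ran from -0.41 to 0.04 for ID1 (limma adjusted p = 0.651) and from -0.29 to 0.18 for ID3 (limma adjusted p = 0.941). For R4VPL3-1 against DMSO it ran from -0.45 to 0.00 for ID1 (limma adjusted p = 0.146) and from -0.37 to 0.10 for ID3 (limma adjusted p = 0.421), so modest falls remain compatible with these libraries. The ID1 difference in R4VPL3-1 against DMSO was -0.22 ± 0.11, and it ranged from -0.07 without DMSO replicate 3 to -0.32 without DMSO replicate 1, where it passed (adjusted p = 0.042).

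ID4 (chr6:19837370-19842197, plus strand) had the lowest counts. They were 13.6, 22.6 and 27.4 in DMSO, 33.0, 33.6 and 37.9 in VHL-r, and 21.5, 17.9 and 20.3 in R4VPL3-1. The VHL-r libraries were the highest of all 9, and DMSO and R4VPL3-1 overlapped. VHL-r exceeded DMSO by 0.74 ± 0.27 (limma adjusted p = 0.0604) and R4VPL3-1 lay below VHL-r by -0.78 ± 0.27 (limma adjusted p = 0.224), and neither was called. Without DMSO replicate 3 the first of these passed (0.94, adjusted p = 0.0283).

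**Figure D3:**
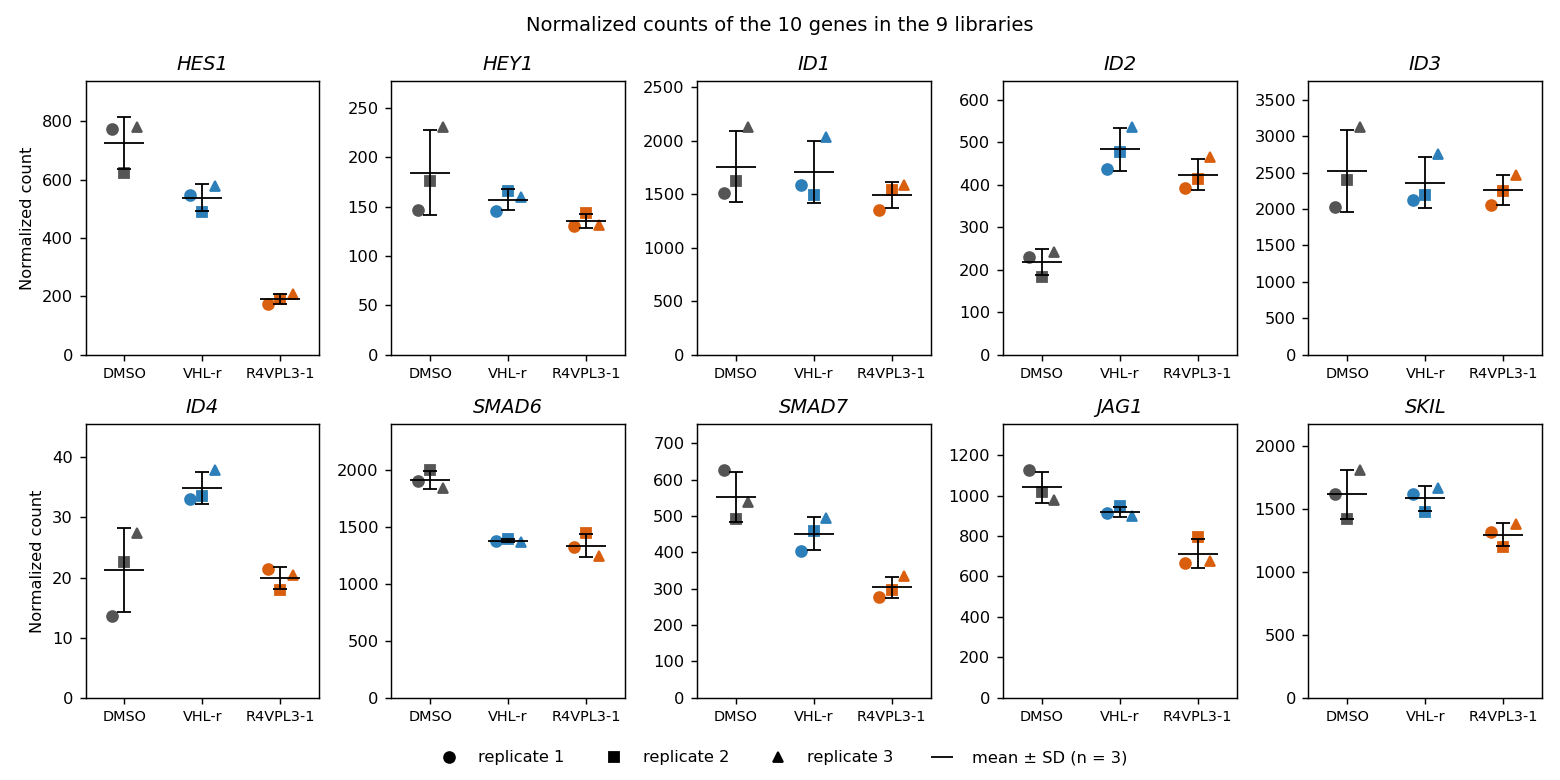
Normalized counts of each of the 10 genes in DMSO, VHL-r and R4VPL3-1, each axis starting at 0, with 1 symbol per library and the mean ± SD of 3 libraries. HES1, SMAD7 and JAG1 step down to their lowest level in R4VPL3-1, SMAD6 falls and ID2 rises to a like level with both compounds, and ID1 and ID3 overlap in all groups.

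The replicate number of the highest library was compared across the 3 groups. For 6 of the 10 genes, the same number gave the highest library in all 3 groups, replicate 3 for HES1, ID1, ID2, ID3 and SKIL and replicate 2 for SMAD6. This held for 15.8% of tested genes. In the column headers, libraries with the same replicate number carry consecutive sample numbers. No label names what else they share.

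The rest of the pathways was described with 10 lists of 152 other genes, of which 122 were tested. In R4VPL3-1 against VHL-r, none of the 122 was called higher by limma and 7 (5.74%) were called lower, beside 1.14% and 0.729% of all tested genes, with a median log2 fold change of -0.05 over the lists. All 7 belonged to 2 lists, the antagonists and repressors of BMP and TGF-beta signaling (3 of 15 tested) and the other BMP and TGF-beta target genes (4 of 21 tested). Neither the study's gene table nor these lists are independent of the libraries, since the lists were written after that table had been read.

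Of the antagonists and repressors, TGIF1, a homeodomain co-repressor of SMADs, went from 768 ± 69.8 (SD, n = 3) in VHL-r to 409.9 ± 18.0 in R4VPL3-1 (-0.90 ± 0.08, limma adjusted p = 1.06e-07). BAMBI, a decoy receptor lacking kinase activity, went from 1076 ± 65.5 to 774 ± 54.8 (-0.48 ± 0.09, limma adjusted p = 0.00244). PMEPA1, which sequesters receptor SMADs, was lower by a smaller step (-0.24 ± 0.05, limma adjusted p = 0.00891), and lost the call when replicate 2 or 3 of VHL-r, or replicate 1 of R4VPL3-1, was left out (highest adjusted p = 0.0745). BAMBI and PMEPA1 were already lower in VHL-r than in DMSO (-0.55 ± 0.09 and -0.31 ± 0.05, limma adjusted p = 8.93e-05 and 1.38e-04). TGIF1 was not called there (-0.18 ± 0.08, limma adjusted p = 0.107). Like SMAD7, these 3 genes encode products that restrain the pathway. The list was drawn up for that role, so the role itself is not a result. The other 12 of its 15 tested genes were not called in this comparison.

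Of the target genes, the homeobox genes DLX2 and DLX1 differed between the compounds by -0.71 ± 0.10 (limma adjusted p = 1.02e-04) and -0.32 ± 0.06 (limma adjusted p = 0.00344). KLF10, a TGF-beta early response repressor, fell from 2719 ± 139.7 in VHL-r to 1732 ± 181 in R4VPL3-1 (-0.65 ± 0.07, limma adjusted p = 5.45e-06). Its DMSO level of 2169 ± 202 lay between them, so KLF10 was higher than DMSO in VHL-r (0.33 ± 0.07, limma adjusted p = 0.00212) and lower in R4VPL3-1 (-0.33 ± 0.07, limma adjusted p = 0.0018). DLX2 was called in the same opposite directions, but both of its calls against DMSO were lost when single libraries were left out. CCN2, a matricellular protein gene, went from 5537 ± 175 to 3911 ± 447 (-0.51 ± 0.08, limma adjusted p = 8.75e-04), a call that limma's robust option did not make (adjusted p = 0.15). DLX1 and CCN2 were already lower in VHL-r than in DMSO (-0.40 ± 0.06 and -0.55 ± 0.08, limma adjusted p = 5.44e-05 and 5.65e-05).

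Against DMSO the lists moved in both directions, with 16 genes (13.1%) higher and 25 (20.5%) lower in R4VPL3-1, beside 13.1% and 11.8% of all tested genes. In VHL-r, 24 (19.7%) were higher and 21 (17.2%) lower, beside 10.3% and 9.51%. Among the Notch receptors, NOTCH1 rose from 1760 ± 134 in DMSO to 3041 ± 156 in VHL-r and 3302 ± 135 in R4VPL3-1 (0.79 ± 0.06 and 0.91 ± 0.06, limma adjusted p = 2.58e-09 and 1.57e-10). No other of the 4 receptors tested was called higher in any comparison. Of the ligands, DLL4 was higher with both compounds at low counts, 3.54 ± 3.03 in DMSO against 14.7 ± 2.70 in VHL-r and 13.4 ± 3.28 in R4VPL3-1. LFNG, a glycosyltransferase that modifies NOTCH, was higher with both, at 0.93 in VHL-r and 0.60 in R4VPL3-1. RBPJ, the DNA-binding partner of NOTCH, was lower in R4VPL3-1 (-0.26 ± 0.05, limma adjusted p = 2.30e-04), and its smaller difference in VHL-r (-0.16 ± 0.05, limma adjusted p = 0.0147) was lost without DMSO replicate 1 or VHL-r replicate 2. Of the other HES, HEY and Notch target genes, HES6 was higher with both compounds, at 0.54 in VHL-r and 0.57 in R4VPL3-1, the direction opposite to HES1.

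On the BMP and TGF-beta side, INHBA, which encodes the activin A subunit, dropped from 1870 ± 389 in DMSO to 618 ± 15.7 in VHL-r and 644 ± 26.0 in R4VPL3-1 (-1.58 ± 0.10 and -1.52 ± 0.10, limma adjusted p = 2.92e-10 and 2.46e-10). FST, whose product traps activins, went from 18370 ± 2540 to 9861 ± 476 and 9466 ± 622. The receptor gene TGFBR2 was lower and ACVR2A higher with both compounds, at -0.38 and 0.45 in VHL-r and -0.50 and 0.53 in R4VPL3-1. Of the 6 receptor-activated and common SMADs, SMAD3 alone was called, lower by -0.36 ± 0.05 with each compound. The co-repressor SKI, a relative of SKIL, rose to 4880 ± 159.9 in VHL-r and 4631 ± 221 in R4VPL3-1 from 3093 ± 149 in DMSO, whereas SKIL did not pass in VHL-r and fell in R4VPL3-1. Of the targets, MSX1 was higher and ZEB2 lower with both compounds, at 0.74 and -0.93 in VHL-r and 0.85 and -0.91 in R4VPL3-1. MSX2, TOB1 and TGFBR1 were higher by 1.03, 0.81 and 0.29 in VHL-r and by 0.83, 0.56 and 0.16 in R4VPL3-1, where the call of TGFBR1 was lost in 9 of 20 settings. TGFB2 was lower by -0.76 in VHL-r and -0.69 in R4VPL3-1. The calls of BMP2 in R4VPL3-1 and of GDF11, DLL1, NOTCH4 and HEY2 in VHL-r were lost when single libraries were left out, as were those of BHLHE40, which was higher with either compound. DTX4 and TLE3 were higher by 0.47 and 0.44 in VHL-r, calls kept in all 20 settings, and by 0.39 and 0.23 in R4VPL3-1, calls lost without some single libraries. Among E-proteins and other partners of ID factors, 3 of 11 were called, all lower with both compounds. Of all tested genes, 24.9% were called in R4VPL3-1 and 19.8% in VHL-r, with 11.8% and 9.51% called lower. Whether the list differs from those shares was not tested. The 3 genes were TWIST1 (-0.96 in VHL-r and -1.13 in R4VPL3-1), ETS1 (-0.35 and -0.39) and NEUROG2, whose call was lost in several settings.

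**Figure D4:**
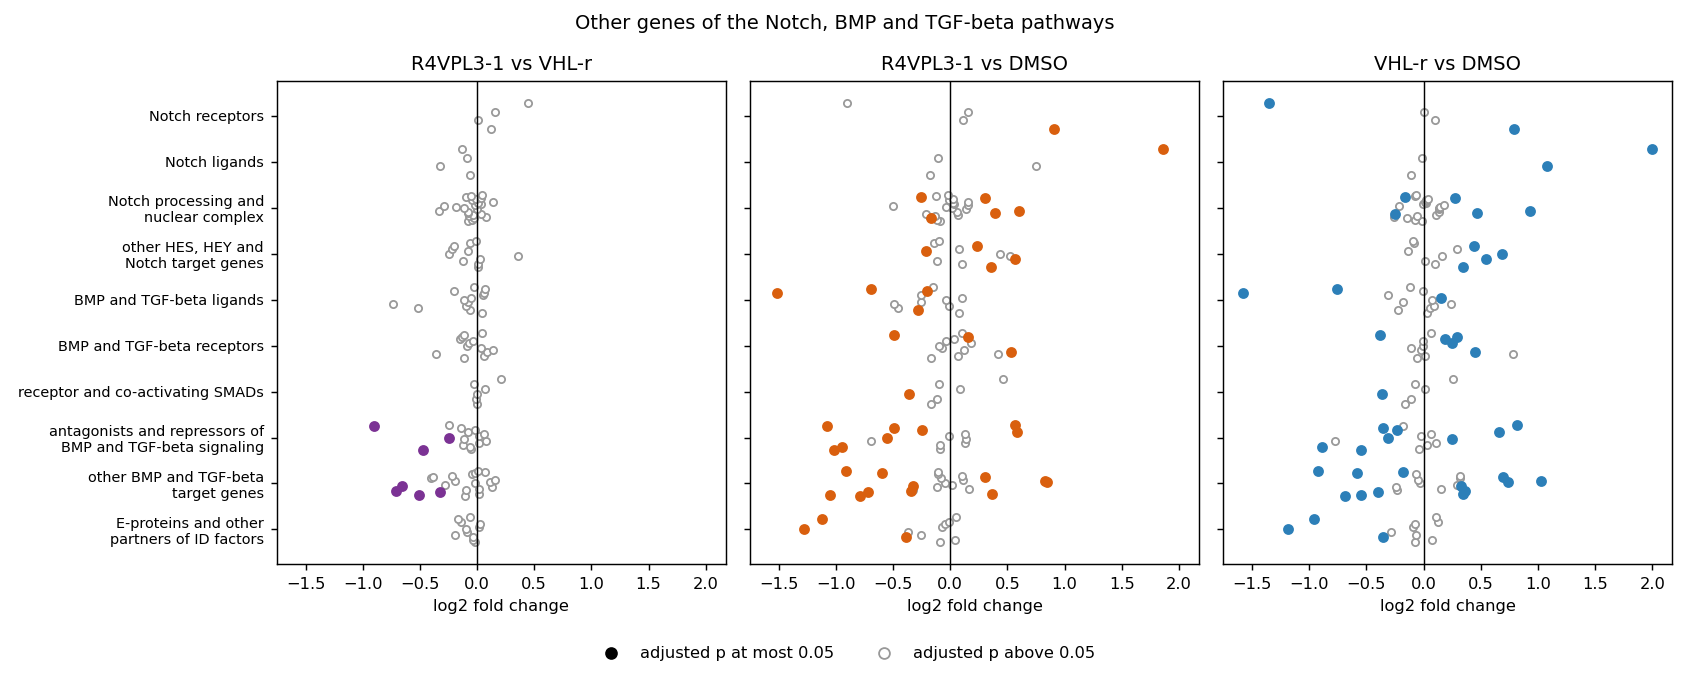
Log2 fold changes of the 122 tested pathway genes, 1 point per gene and 1 row per list, in the 3 comparisons, with filled points for an adjusted p of at most 0.05. In R4VPL3-1 against VHL-r the 7 filled points all lie below 0 and in 2 lists, whereas both comparisons with DMSO hold filled points on both sides.

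For each of the 10 genes, the tested genes most like it were found by Pearson's r of log2(normalized count + 1) over the 9 libraries, which share their groups, so these values describe and test nothing. HES1 was closest to IER3 (r = 0.989), DUSP6 (0.987) and ETS2 (0.981). DUSP6, a phosphatase of ERK, averaged 6358, 4783 and 1720 normalized counts in DMSO, VHL-r and R4VPL3-1, and IER3, an immediate early gene, 4226, 2866 and 1063. SMAD7 was closest to LPCAT1 (0.993), YTHDF2 (0.975) and again ETS2 (0.974), and JAG1 to FOXC1 (0.988), MIDEAS (0.987) and KIFC1 (0.981). SMAD6 was closest to CDC42SE1 (0.994), IPPK (0.989) and MYC (0.989), and MYC averaged 1185, 406 and 347 in the 3 groups. ID2 was closest to SDE2 (0.995), KIF5A (0.99) and PCF11 (0.988), the last of which averaged 1186, 2614 and 2475. SKIL was closest to PCDHB13 (0.984), GPR55 (0.942) and NACA (0.939), and HEY1 to IL1A (0.956), an unnamed gene (ENSG00000260604, 0.951) and PRR7 (0.943). ID1 was closest to CDC42EP5 (0.985), FAM78B (0.957) and ATP10B (0.936), ID3 to SHROOM4 (0.979), ATP10B (0.953) and ACSS1 (0.951), and ID4 to ADCY1 (0.924), SERTM1 (0.916) and GMDS (0.908).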

How the data were processed

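Single reads of 100 bases from 9 strand-specific poly(A) libraries were aligned by the authors to GRCh38 with STAR and counted with htseq-count set to the reverse strand. The authors deposited normalized counts, a signal equal to reads divided by a DESeq2 (version 1.36.0) size factor. Whole reads were recovered from the steps of these values (all within 0.1 read), with totals of 26435568 to 32085626 per library and a median of 28165279.

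The main test was limma 3.58.1 (R 4.3.3, trend option) on log2(normalized count + 1) over 15230 genes with a mean of at least 10, with treatment as the only factor and all 9 libraries, since the deposited values are normalized. Benjamini-Hochberg adjusted p-values of at most 0.05 were called. The fit was tested on simulated data. Count tests (edgeR 4.0.16, DESeq2 1.42.0) on the recovered reads, a replicate block, other pseudocounts, filters and scalings, and each library left out were alternatives. Exon lengths and coordinates were those of GENCODE 44 on GRCh38, which matched the table for all 10 genes. None of the 10 shares same-strand exons with another gene or a whole 100-base window with a second gene. Upstream sequences came from RefSeq.

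The 10 genes and the pathway lists were chosen with earlier results of these data known. Named were all 10 genes, every list gene called between the compounds, genes among the 3 largest calls of each list and comparison, and the 3 genes most like each of the 10. Some genes that the rule takes are not reported here. RBPJ falls outside that rule and was named after its values were seen. No value column was left unused (0 columns). Libraries are biological repeats per the study's design text.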

Additional observations from a re-analysis of the deposited data

How the results depend on the processing

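The 10 genes were recomputed under 20 alternative settings. Of 597 values, 560 kept their direction and their side of the threshold, 18 newly passed it, 6 no longer passed it and 13 changed sign. The numbers of the 10 genes called stayed within 1.5 times of 3, 7 and 3 in the 3 comparisons. Of 99 calls among the list genes, 74 were kept under every setting. The settings were applied to these lists after seeing the data.

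Every sign change was in a value that was not called and came from leaving out 1 library. For R4VPL3-1 against VHL-r, the values over the left-out libraries were -0.13 to 0.0602 for ID3 and -0.11 to 0.0007 for SMAD6. For R4VPL3-1 against DMSO they were -0.28 to 0.0314 for ID3 and -0.31 to 0.17 for ID4. For VHL-r against DMSO they were -0.17 to 0.11 for ID1, -0.22 to 0.0895 for ID3 and -0.11 to 0.0622 for SKIL. The cause was not tested.

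With the replicate number as a block, SKIL passed in R4VPL3-1 against VHL-r (-0.29, adjusted p = 0.0012), as did ID1 in R4VPL3-1 against DMSO (-0.22, adjusted p = 0.0108) and SMAD7 in VHL-r against DMSO (-0.29, adjusted p = 0.0302). Over all genes the block gave 389, 4241 and 3451 calls in the 3 comparisons against 285, 3792 and 3016 without it. Libraries with the same number had deviations correlated at -0.01 to 0.12 and those with other numbers at -0.15 to 0.10. These ranges overlap and do not settle whether the numbers pair the libraries. The main test used no block because the study fitted treatment alone. The main test did not make the calls of SKIL, ID1 and SMAD7 named above. Each was also made in some setting without a block. ID4 had 15 to 37 reads per library, and its values carry the widest intervals of the 10 genes.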
